A study of Homo sapiens with 12 samples.

Results

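The genes described here are the core DNA replication machinery, 46 genes chosen by symbol, with earlier results of these data known. They are carried by 71 probes of the array. Of these, 66 probes from 45 genes were above background on at least 2 of 12 arrays (detection p under 0.01) and were tested among 19357 tested probes from 11305 genes. The only probe of GINS1, a subunit of the GINS complex, was never above background, nor was 1 probe each of PCNA, ORC5, RFC5 and POLD3. A single tested probe stood for 27 genes and several for the other 18, and a gene is counted by its brightest tested probe unless another is named.

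Replication starts at origins, where the origin recognition complex with CDC6 and CDT1 loads the MCM2-7 helicase onto DNA in G1. CDC45 and GINS then join the helicase to form the active CMG complex, DNA polymerase alpha with primase lays primers, the RFC complex loads the sliding clamp PCNA, and polymerases delta and epsilon extend the new strands. Most of these genes are transcribed towards S phase under E2F factors, so that their transcripts follow the proliferation of a cell population, as in dividing myeloma cells.

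The study treated 3 human cell lines, labelled as multiple myeloma, with PRIMA-1Met or with its solvent DMSO as control. PRIMA-1Met forms a thiol-reactive product inside cells and was developed to reactivate mutant p53. MM.1S, labelled p53 wild type, received 20 µM, whereas U266, labelled p53 mutant, and 8226R5, labelled p53 null, received 40 µM, all for 8 h. Each line had 2 control and 2 treated arrays, 12 in all, so dose and p53 status cannot be told apart from the line. The cells were seeded in duplicate wells, per the labels, and a p-value covers only the spread of these samples, possibly a technical one.

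Values are the authors' quantile-normalized log2 values, and a response is the treated minus the control mean of a line in log2 units, with its standard error (SE) and n = 2 arrays per group throughout. Between 11815 and 16025 probes were above background on an array. Treated MM.1S arrays were the dimmest, with a 90th percentile of raw signal of 212 and 215 intensity units against 789 to 836 on the MM.1S controls. They also differed most between replicates, by an SD of 0.21 log2 units over the replication genes against 0.10 to 0.15 in the other groups, and the fit gave all groups 1 common spread. An equal mass of total RNA was labelled from each sample, so the arrays show a transcript's share of the RNA; fewer cells of one type and less RNA per cell cannot be told apart.

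The arrays labelled 8226R5 went against their label. Of 8 plasma cell markers, all 8 were above background on both MM.1S control arrays and 7 on the U266 controls, but only 4 on the 8226R5 controls. TNFRSF17, CD38, IRF4 and SLAMF7 were not above background on any 8226R5 array. The summed level of the 8 markers was 56498 and 58885 in MM.1S controls, 34591 and 35982 in U266 controls and 2616 and 2738 in 8226R5 controls, on the linear scale of the normalized values. Of 10 tested markers of other cell types, CD3E, CD3D, NKG7 and EPCAM were above background on 8226R5 arrays alone, whereas PECAM1 and HBB were so on none of them. Between controls, 6 of the 10 were called higher in 8226R5 than in MM.1S and 3, HBB, PECAM1 and CD68, lower. The summed level was 16628 and 17751 in 8226R5 controls, 1826 and 1833 in MM.1S controls and 1198 and 1214 in U266 controls. EPCAM differed most from MM.1S, by 8.19 log2 units against a median of 1.24 over the list, so the sum can rest largely on 1 gene. The line is called by its label below, and no other name is given to it. With treatment the summed level of these other markers reached 9666 and 9805 in MM.1S, where ALB rose by 4.79 and CD68 by 3.08 log2 units, 1977 and 1986 in U266, and 16403 and 17097 in 8226R5. The part of these markers in the results was not tested.

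In MM.1S most of the replication machinery fell after PRIMA-1Met. Of the 45 genes tested, 33 fell, 5 rose and 7 did not pass a limma adjusted p of 0.05. Across all genes tested 50.3% fell and 24.1% rose, so a fall was common in this line. The genes that fell spanned the helicase, the clamp loader, primase, RPA and the nucleotide enzymes. The genes that rose were GINS4, POLD1, POLE, ORC6 and LIG1. In 36 of 45 genes both treated arrays lay below both controls (55.3% of all genes).

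The direction of some changes in MM.1S, among them the large rise of POLD1, depended on how the dim arrays were scaled. The median response of the replication genes was -0.64 and that of all genes -0.34, which puts the replication genes 0.30 log2 units below the rest. Scaling each array on its median over all probes moved the median of all genes to -1.39, with 2 replication genes up and 41 down. Of all 11305 genes 871 were then up and 8437 down. Scaling on the 8932 probes above background on all arrays moved the median of all genes to 0.36, with 9 replication genes up and 27 down. Of all genes 5852 were then up and 3490 down. Relative to all genes the replication genes then stood at -0.81 under either scaling, at -0.57 without the detection filter and at -0.18 among genes above background in a compared group. Both scalings shift every gene on an array by the same amount, so their shared -0.81 was fixed in advance and counts once. Of the 38 calls in MM.1S, 28 held with the same sign under every alternative tried.

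At the 2-fold criterion that the study's design names, 12 replication genes were lower and 2 higher in MM.1S, on fitted differences, where 19.2% and 10.8% of all genes were. Of the 12, RFC3, RFC2 and PRIM2 were not above background on the treated arrays, so their folds are bounds or are not given.

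In U266 the fall was narrower. Of the 45 genes, 14 fell, 3 rose and 28 did not pass (14.5% of all genes fell and 12.1% rose). The 14 were RRM2, MCM4, PRIM1, POLA2, UHRF1, PRIM2, MCM5, TYMS, SLBP, CHAF1B, ORC2, MCM6, MCM7 and POLE, although PRIM2, MCM6 and MCM7 turned positive under scaling on the probes above background on all arrays and TYMS under scaling on the tested probes. The 3 that rose, RPA1, MCM10 and RFC1, each turned negative under median scaling over all probes. That scaling gave 39 replication genes down and none up, with 7239 down and 388 up of all 11305 genes. Scaling on the probes above background on all arrays gave 12 down and 6 up, with 1702 and 3237 of all genes. The median response was -0.19 for the replication genes and -0.01 for all genes. In 28 of 45 genes both treated arrays lay below both controls (36% of all genes). RRM2 alone was at least 2-fold lower (1.29% of all genes).

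Single arrays weighed on the U266 counts. The number that fell was 7 and 6 when control replicate 1 or 2 was left out, and 9 without treated replicate 2. The number that rose was 0 without control replicate 2 or treated replicate 1 of U266, and 1 without U266 treated replicate 2, either MM.1S control or either treated 8226R5 array. MCM4, PRIM1, RRM2 and UHRF1 kept their call and sign under every alternative tried. Leaving out any 1 U266 array leaves 1 array in its group, and fewer of all genes tested then fell or rose. The drop in the counts was thus not particular to the replication genes.

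In the line labelled 8226R5 few replication genes changed. RRM2 and GINS4 rose, CDC45 and POLE fell, and 41 of 45 did not pass, against 4.13% of all genes that rose and 5.04% that fell. Median scaling over all probes gave 13 up and none down, with 2911 up and 473 down of all 11305 genes. Among genes above background on all 12 arrays, 6 of 41 replication genes fell and 5 rose. Of all 5966 such genes 807 fell and 612 rose. The median response was -0.04 for the replication genes and -0.02 for all genes, and the order of these medians turned under scaling. In 20 of 45 genes both treated arrays lay below both controls (34% of all genes), and in 8 they lay above (27.3%). Leaving out any 1 array of this line leaves 1 array in its group, and fewer of all genes tested then passed. RRM2 was the only replication gene call that held under every alternative. Without any 1 of the 4 arrays of this line no gene fell and RRM2 alone rose. Leaving out arrays of the other lines, which share the estimate of spread, moved the falls to 4 without either treated MM.1S array and to 1 without either U266 control, and the rises to 1 without any 1 U266 array or either MM.1S control.

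**Figure D1:**
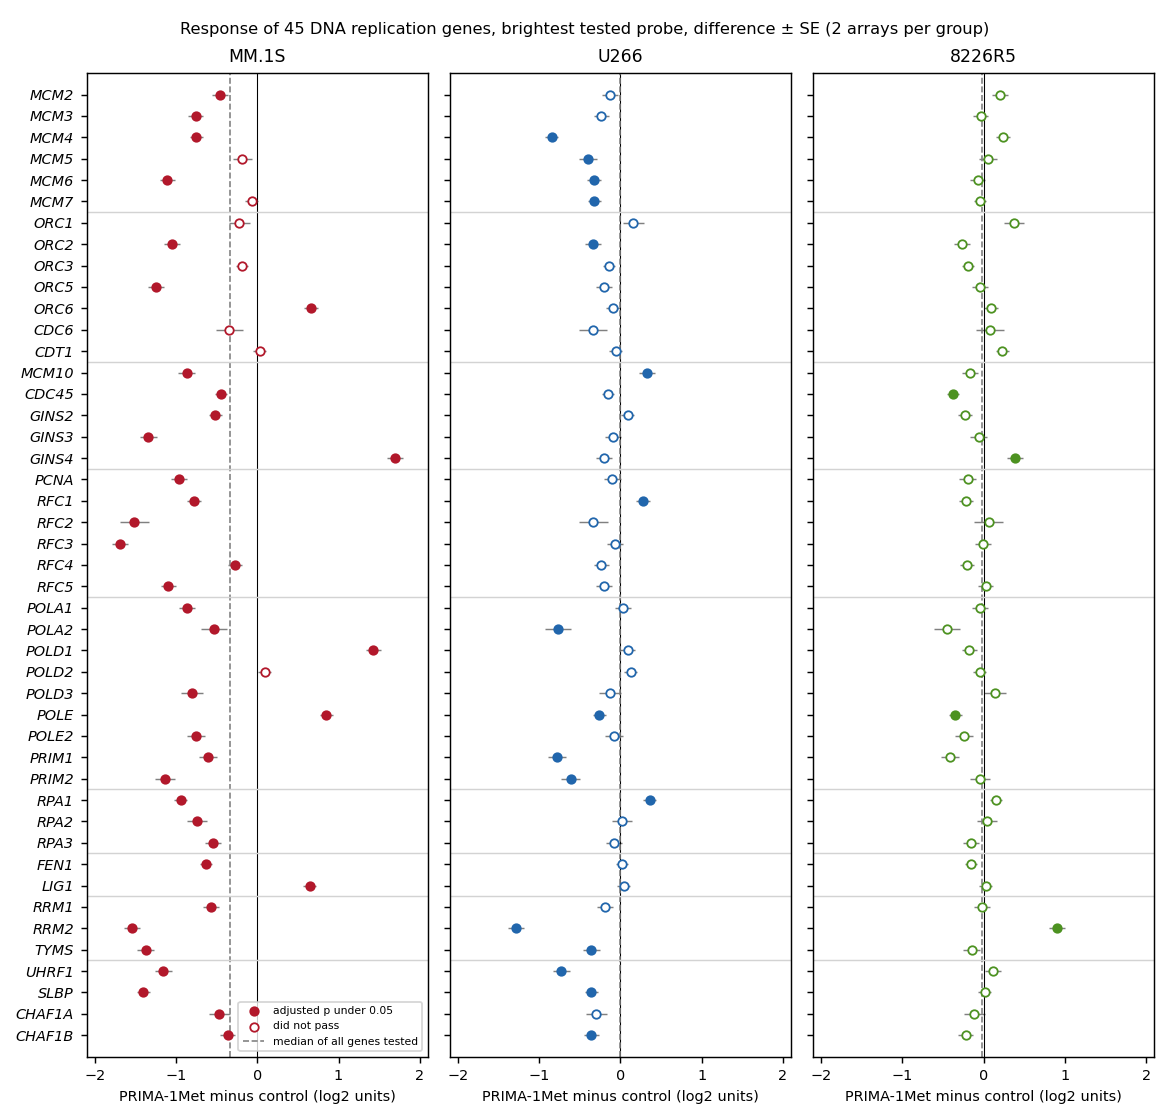
Response of each of the 45 tested replication genes, grouped by role from the MCM helicase at the top to chromatin factors at the bottom, in each line. The x axis is treated minus control in log2 units, bars are ± SE, filled points passed an adjusted p of 0.05 and the dashed line is the median of all genes tested. In MM.1S 33 points are filled to the left and 5 to the right, in U266 14 and 3, and in 8226R5 2 and 2. The rises of POLD1, POLE and LIG1 in MM.1S and of RPA1, MCM10 and RFC1 in U266 turned negative under median scaling over all probes. The falls of RFC4 and PRIM2 in MM.1S and of PRIM2, MCM6 and MCM7 in U266 turned positive under scaling on the probes above background on all arrays, and that of TYMS in U266 under scaling on the tested probes.

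**Figure D2:**
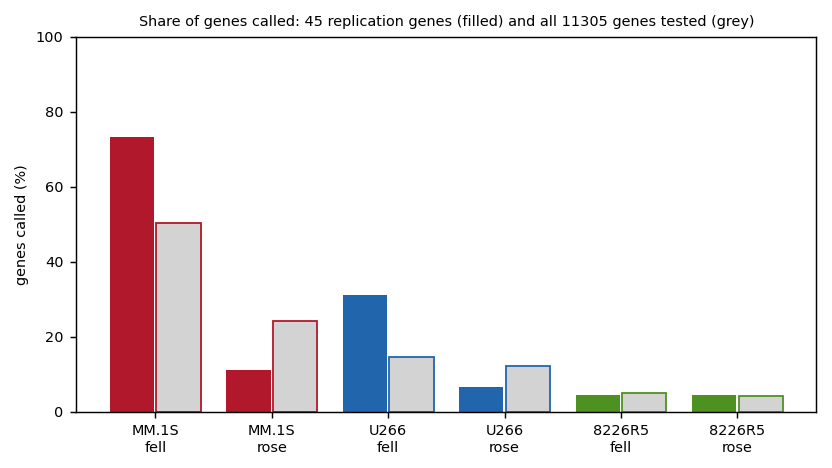
Percentage of genes called lower or higher after treatment in each line, for the 45 replication genes (filled bars) and all 11305 genes tested (grey bars). In MM.1S 73.3% of the replication genes and 50.3% of all genes fell, in U266 31.1% and 14.5%, and in 8226R5 4.44% and 5.04%.

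The MCM2-7 helicase, the motor that unwinds DNA at the fork, had 4 of 6 subunits lower in MM.1S and 4 of 6 in U266, with none called in 8226R5. Over all genes tested, 50.3% fell and 24.1% rose in MM.1S, 14.5% and 12.1% in U266 and 5.04% and 4.13% in 8226R5. These shares also stand beside the counts by role below. MCM6, MCM3, MCM4 and MCM2 fell in MM.1S. In U266 MCM4 fell under each scaling, MCM5 stayed below 0 under each but did not pass under scaling on the probes above background on all arrays, and MCM6 and MCM7 were called lower but turned to 0.06 and 0.022 under scaling on the probes above background on all arrays.

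MCM4, a core subunit of the ring, read 11.65 and 11.60 on the MM.1S controls and 10.87 and 10.88 after treatment. In U266 it read 11.75 and 11.77, then 10.97 and 10.84, and in 8226R5 10.001 and 10.17, then 10.32 and 10.32. The treated arrays lay below the controls in MM.1S and U266 and above them in 8226R5, with no overlap in any line. The response was -0.75 ± 0.08 in MM.1S (adjusted p = 2.91e-05) and -0.85 ± 0.08 in U266 (adjusted p = 0.000174), and 0.24 ± 0.08 in 8226R5 did not pass (adjusted p = 0.12). A second MCM4 probe gave -0.47 in MM.1S and -0.17 in U266, the latter not past the threshold.

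MCM6 had the largest change of the ring in MM.1S, -1.11 ± 0.09. MCM2 read 10.66 and 10.70 on the MM.1S controls and 10.24 and 10.20 after treatment, a fall of 0.46 ± 0.10 with no overlap. In U266 it read 11.69 and 11.40, then 11.42 and 11.41, and in 8226R5 10.87 and 10.88, then 11.09 and 11.06; neither passed. In U266 the groups overlapped. MCM5 read 10.65 and 10.52, then 10.33 and 10.47 in MM.1S, 11.33 and 11.27, then 10.74 and 11.06 in U266, and 9.58 and 9.50, then 9.65 and 9.53 in 8226R5. It passed in U266 alone, at -0.40 ± 0.12, where both treated arrays lay below the controls.

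The 3 MCM7 probes disagreed. In MM.1S the brightest gave -0.07 and did not pass, a second fell by 0.44 and the third, not above background in any other group, was at least 2.02-fold higher after treatment. The second probe, above background on all arrays, read 8.50 and 8.43, then 7.30 and 7.34 in U266, and 7.32 and 7.14, then 8.10 and 8.34 in 8226R5. Its groups were fully separated in opposite directions, with responses of -1.14 ± 0.10 (adjusted p = 9.34e-05) and 0.99 ± 0.10 (adjusted p = 0.000931). The brightest probe gave -0.32 and -0.05 in these lines, so the gene's response depends on the probe read.

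Of 7 origin recognition and licensing factors 3 were called in MM.1S, 1 in U266 and none in 8226R5. In MM.1S ORC5 and ORC2, subunits of the origin recognition complex, fell by 1.25 and 1.05 log2 units, ORC6 rose and the other 4 did not pass. In U266 ORC2 fell by 0.34. ORC1, the largest subunit, read 8.16 and 7.97, then 7.67 and 8.02 in MM.1S, 8.38 and 8.35, then 8.48 and 8.57 in U266, and 7.61 and 7.80, then 8.11 and 8.03 in 8226R5. Control and treated arrays overlapped in MM.1S, and the treated arrays were the higher ones in the other lines, none past the threshold.

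CDT1, which delivers the helicase to origins, read 9.16 and 9.25, then 9.21 and 9.26 in MM.1S, 11.15 and 11.24, then 11.16 and 11.11 in U266, and 10.18 and 10.27, then 10.48 and 10.42 in 8226R5. The 3 lines did not overlap. In 8226R5 both treated arrays lay above the controls, in the other lines the groups overlapped, and no response passed. CDC6, the ATPase that loads the helicase with CDT1, read 6.396 and 6.24, then 6.00 and 5.95 in MM.1S, 6.57 and 6.21, then 6.29 and 5.81 in U266, and 6.401 and 6.63, then 6.60 and 6.59 in 8226R5. It was above background on 4 of 12 arrays and on none of MM.1S, so no response is given. The rise of ORC6 in MM.1S, 0.66 ± 0.09, came from a probe whose raw signal was 33906 to 57312, with 3 to 140 of all probes brighter on an array. The other ORC6 probe gave 0.24 in MM.1S, not past the threshold, and fell by 0.58 in U266.

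Genes that turn the loaded helicase into the CMG complex were called in both directions in MM.1S. GINS3, MCM10, GINS2 and CDC45 fell, by 1.34, 0.87, 0.52 and 0.44 log2 units, and GINS4 rose. In U266 MCM10, which activates the assembled helicase, was the only one called, at 0.33 ± 0.10, or -0.22 under median scaling over all probes.

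GINS4, also a GINS subunit, had the largest rise of any replication gene in MM.1S on these values. It read 7.04 and 7.18 on the controls and 8.69 and 8.92 after treatment. In U266 it read 7.39 and 7.34, then 7.20 and 7.12, and in 8226R5 6.60 and 6.67, then 7.01 and 7.03. Groups were separated in each line, upwards in MM.1S and 8226R5. The response was 1.69 ± 0.10 in MM.1S (3.24-fold, adjusted p = 3.74e-07), opposite to its partners GINS2 and GINS3, and 0.38 ± 0.10 in 8226R5 (adjusted p = 0.0397). The value of -0.20 ± 0.10 in U266 did not pass (adjusted p = 0.153).

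CDC45, which bridges helicase and GINS, was one of the 2 genes called lower in 8226R5, and its promoter is printed as the largest called fall there. It read 10.69 and 10.65 on the 8226R5 controls and 10.26 and 10.33 after treatment, without overlap, a response of -0.38 ± 0.08 (adjusted p = 0.0162). In MM.1S it read 10.94 and 10.98, then 10.50 and 10.53, and in U266 11.43 and 11.38, then 11.20 and 11.29. The treated arrays were the lower ones in all 3 lines, and the response passed in MM.1S (-0.44 ± 0.08) and not in U266 (-0.16 ± 0.08, adjusted p = 0.161). RefSeq gives 3 start sites on GRCh38.p14; the 250 bases before the third, which held the most CCAAT boxes, chr22:19479670-19479919 on the plus strand, are shown with CCAAT boxes of either strand in capitals, 4 in number.
CDC45 promoter: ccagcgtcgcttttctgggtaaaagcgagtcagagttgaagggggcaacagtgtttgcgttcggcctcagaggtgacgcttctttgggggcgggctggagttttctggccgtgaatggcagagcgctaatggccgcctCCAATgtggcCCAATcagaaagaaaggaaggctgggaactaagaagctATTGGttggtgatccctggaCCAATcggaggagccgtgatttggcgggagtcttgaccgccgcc

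The clamp and its loader were lower as a whole in MM.1S, where all 6 genes were called, although RFC4, the smallest response, turned from -0.27 to 0.027 under scaling on the probes above background on all arrays. In U266 RFC1, the large loader subunit, was called at 0.27 ± 0.09, turning to -0.30 under median scaling over all probes, and the other 5 did not pass. A second RFC4 probe was called lower in both MM.1S and U266, at -0.98 and -0.35. None of the 6 passed in 8226R5. PCNA, the sliding clamp, read 11.79 and 11.95 on the MM.1S controls and 10.95 and 10.87 after treatment, a fall of 0.96 ± 0.10 (adjusted p = 1.98e-05). In U266 it read 12.40 and 12.52, then 12.47 and 12.24, which overlapped, and in 8226R5 13.03 and 13.06, then 12.90 and 12.79, without overlap; neither passed.

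RFC3, a small subunit of the loader, had the largest fitted fall among the replication genes in MM.1S. It read 8.40 and 8.42 on the controls and 6.81 and 6.63 after treatment, where it was not above background, so it was at least 2.60-fold lower (adjusted p = 3.94e-07). In U266 it read 8.61 and 8.72, then 8.52 and 8.69, and in 8226R5 9.11 and 9.12, then 9.17 and 9.04. The groups overlapped in both of these lines. A second RFC3 probe was at least 1.41-fold lower in MM.1S and fell by 0.71 in U266, and another was above background in 8226R5 alone. RFC2 read 8.13 and 8.04 on the MM.1S controls and 6.23 and 6.92 after treatment, at least 2.08-fold lower, but its other probe gave 0.15 and did not pass. RFC2 read 8.27 and 8.19, then 7.85 and 7.94 in U266, and 8.68 and 8.59, then 8.72 and 8.68 in 8226R5, neither past the threshold. The promoter of RFC3 is printed for the largest fitted fall in MM.1S, as the 250 bases before the RefSeq start at chr13:33817899-33818148 (GRCh38.p14, plus strand). The capitals mark 1 E2F-type motif on the opposite strand, whose nearest base lies 48 bases before the start.
RFC3 promoter: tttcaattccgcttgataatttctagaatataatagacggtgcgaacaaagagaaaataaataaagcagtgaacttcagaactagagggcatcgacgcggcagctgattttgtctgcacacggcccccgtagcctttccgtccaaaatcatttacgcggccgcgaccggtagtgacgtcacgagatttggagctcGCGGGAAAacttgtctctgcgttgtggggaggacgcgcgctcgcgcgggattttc

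DNA polymerases and primase split in MM.1S. POLD1 and POLE, the catalytic subunits of polymerases delta and epsilon, rose, while POLA1, POLA2, PRIM1, PRIM2, POLD3 and POLE2 fell and POLD2 did not pass. A second POLD2 probe was called lower there, at -0.88, and a second POLA1 probe did not pass. The POLD1 and POLE rises turned to -0.14 and -0.79 under median scaling over all probes and stayed positive under the other scalings. In U266 PRIM1, POLA2, PRIM2 and POLE fell, and in 8226R5 POLE alone did.

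POLD1 read 9.05 and 9.09 on the MM.1S controls and 10.39 and 10.61 after treatment, 1.43 ± 0.09 higher (2.69-fold, adjusted p = 8.7e-07) on the quantile-normalized values. It read 9.67 and 9.65, then 9.67 and 9.83 in U266, and 8.75 and 8.74, then 8.59 and 8.55 in 8226R5, neither past the threshold. The U266 groups overlapped and the 8226R5 groups did not. POLE read 8.97 and 8.94, then 9.76 and 9.87 in MM.1S, 9.04 and 9.04, then 8.85 and 8.71 in U266, and 8.82 and 8.84, then 8.50 and 8.47 in 8226R5. Treated arrays were all higher in MM.1S and all lower in the other lines, with responses of 0.85 ± 0.08, -0.26 ± 0.08 and -0.35 ± 0.08 (adjusted p = 8.32e-06, 0.0386 and 0.0283).

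The POLE promoter is printed because the gene was called in every line, a choice made after its values were seen. The 250 bases before its RefSeq start lie at chr12:132687343-132687592 on the minus strand (GRCh38.p14). Capitals mark 1 E2F-type motif, with its nearest base 11 bases before the start, and a CCAAT box on each strand that overlap each other.
POLE promoter: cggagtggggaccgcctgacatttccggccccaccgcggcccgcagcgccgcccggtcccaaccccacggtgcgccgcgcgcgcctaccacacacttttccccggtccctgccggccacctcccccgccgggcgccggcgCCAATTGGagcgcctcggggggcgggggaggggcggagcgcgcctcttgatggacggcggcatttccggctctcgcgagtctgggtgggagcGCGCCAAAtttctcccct

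In U266 the catalytic primase subunit PRIM1 and the polymerase alpha accessory subunit POLA2 fell, and POLA1, the catalytic subunit of polymerase alpha, gave 0.03 and did not pass (adjusted p = 0.839). Primase makes the RNA primers. PRIM1 read 11.41 and 11.46 on the U266 controls and 10.57 and 10.74 after treatment, a response of -0.78 ± 0.11 (adjusted p = 0.00112). Its second probe also gave -0.78 in U266. PRIM1 read 9.86 and 10.04, then 9.43 and 9.26 in MM.1S, and 10.84 and 10.85, then 10.55 and 10.32 in 8226R5. Treated arrays lay below controls in all 3 lines, with -0.61 ± 0.11 in MM.1S and -0.41 ± 0.11 in 8226R5, where it did not pass (adjusted p = 0.0506).

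POLA2 read 9.58 and 9.51, then 8.64 and 8.93 in U266, 10.06 and 9.93, then 9.72 and 9.20 in MM.1S, and 9.79 and 9.83, then 9.39 and 9.33 in 8226R5. It was lower on every treated array than on the controls of its line. The response was -0.77 ± 0.16 in U266, -0.54 ± 0.16 in MM.1S and -0.45 ± 0.16 in 8226R5, where it did not pass (adjusted p = 0.117). PRIM2, the large primase subunit, read 6.38 and 6.16, then 5.16 and 5.11 in MM.1S, 5.85 and 5.85, then 5.36 and 5.12 in U266, and 6.48 and 6.65, then 6.42 and 6.63 in 8226R5. It counted as lower in MM.1S and U266 but was above background on 2 of 12 arrays, both 8226R5, so no fold is given, and its sign turned under scaling on the probes above background on all arrays.

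RPA, which coats single-stranded DNA, fell in all 3 subunits in MM.1S, by 0.94 (RPA1), 0.74 (RPA2) and 0.54 (RPA3) log2 units. RPA2 read 10.92 and 10.94, then 10.32 and 10.06 in MM.1S, 12.64 and 12.63, then 12.73 and 12.59 in U266, and 11.89 and 11.89, then 12.09 and 11.78 in 8226R5. Groups were separated in MM.1S and overlapped in the others. In U266 the brightest RPA1 probe rose by 0.36 ± 0.08, or gave -0.16 under median scaling over all probes, a second fell by 0.33 and another gave -0.12, so no direction holds for RPA1 there. Of the Okazaki fragment enzymes in MM.1S, the flap nuclease FEN1 fell by 0.64 ± 0.07 and the ligase LIG1 rose by 0.65 ± 0.08, or gave -0.995 under median scaling over all probes. Neither passed in the other lines by its brightest probe, but a second FEN1 probe was called lower in U266, at -0.38.

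Nucleotide supply held the replication gene with the widest contrast between lines. RRM2, the small subunit of ribonucleotide reductase, which makes deoxynucleotides, read 11.03 and 10.91 on the MM.1S controls and 9.41 and 9.44 after treatment. It read 10.58 and 10.61, then 9.39 and 9.21 in U266, and 8.38 and 8.59, then 9.37 and 9.39 in 8226R5. No groups overlapped; it was lower after treatment in MM.1S and U266 and higher in 8226R5, and the 6 treated arrays lay within 9.21 to 9.44. The response was -1.54 ± 0.10 in MM.1S (2.90-fold lower, adjusted p = 7.55e-07), -1.29 ± 0.10 in U266 (2.45-fold lower, adjusted p = 3.67e-05) and 0.90 ± 0.10 in 8226R5 (1.87-fold higher, adjusted p = 0.00114). All 3 calls held under every alternative. RRM1, the large subunit, fell by 0.57 in MM.1S and was not called in the other lines.

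The RRM2 promoter is printed for the largest fall in U266. RefSeq gives 2 starts, and the 250 bases before the second, chr2:10122489-10122738 on the plus strand (GRCh38.p14), held 3 CCAAT boxes, in capitals, and none of the E2F-type motifs searched.
RRM2 promoter: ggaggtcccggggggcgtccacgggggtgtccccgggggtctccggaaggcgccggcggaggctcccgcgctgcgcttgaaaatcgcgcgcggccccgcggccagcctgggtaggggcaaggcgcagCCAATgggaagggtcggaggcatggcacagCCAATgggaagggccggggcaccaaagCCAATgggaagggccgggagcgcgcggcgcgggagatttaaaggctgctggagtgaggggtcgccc

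TYMS, which makes thymidylate, read 12.62 and 12.54, then 11.23 and 11.19 in MM.1S, 13.02 and 13.32, then 12.78 and 12.83 in U266, and 12.08 and 12.09, then 11.87 and 12.01 in 8226R5. Treated arrays were below controls in each line, by 1.37 ± 0.10 in MM.1S and 0.36 ± 0.10 in U266, where scaling on the tested probes gave 0.012, and -0.15 ± 0.10 in 8226R5 did not pass.

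**Figure D3:**
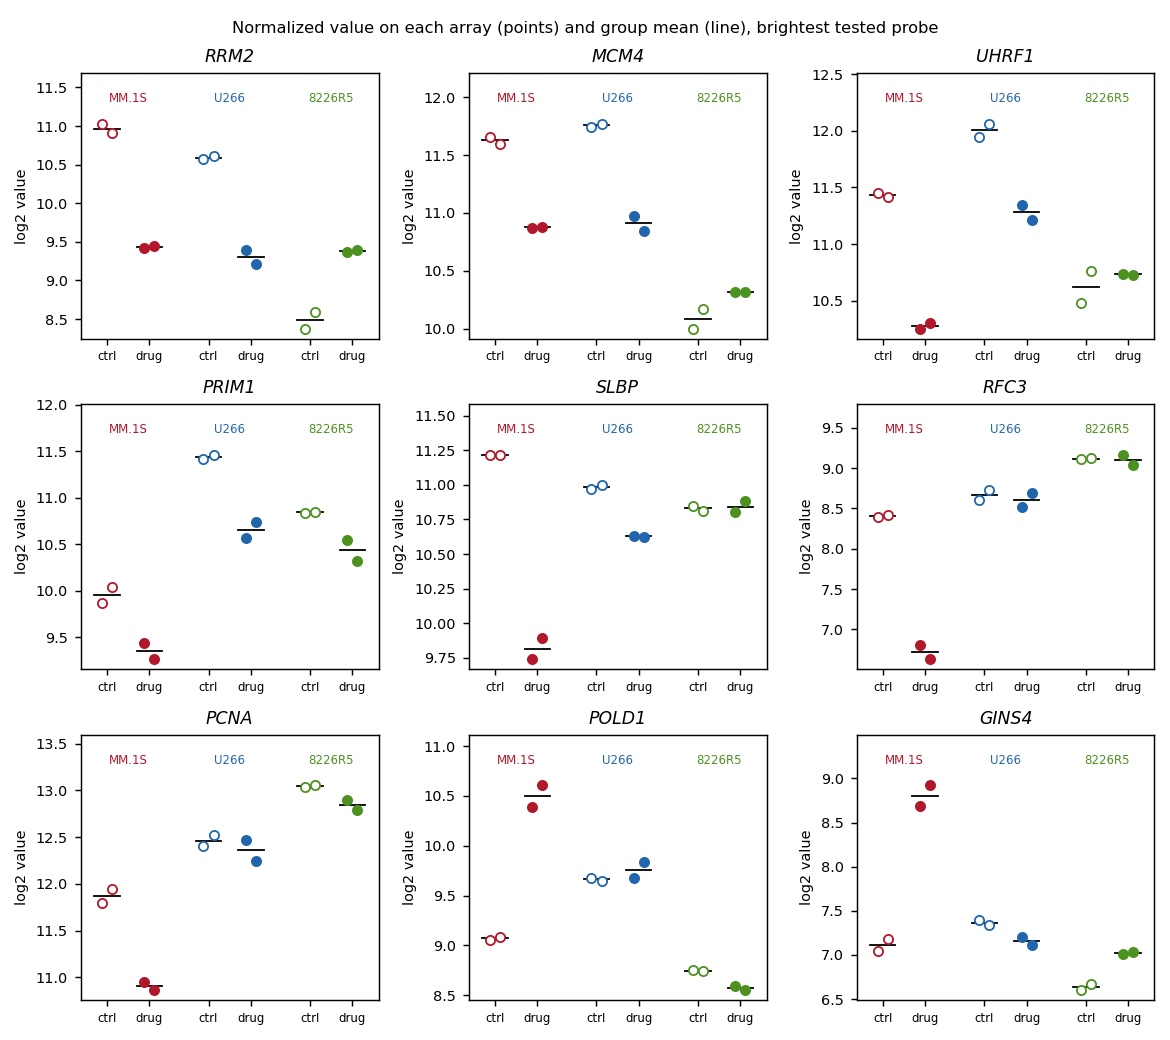
Normalized log2 value of 9 replication genes on each of the 12 arrays, by line and treatment (ctrl, DMSO control; drug, PRIMA-1Met), with lines at the group means. RRM2 falls from 11.03 and 10.91 to 9.41 and 9.44 in MM.1S and climbs from 8.38 and 8.59 to 9.37 and 9.39 in 8226R5. POLD1 and GINS4 are higher after treatment in MM.1S on these values, and POLD1 turned to -0.14 under median scaling over all probes.

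All 4 genes that couple replication to chromatin fell in MM.1S, and 3 of 4 fell in U266. UHRF1, which recruits DNA methylation to new strands, read 11.45 and 11.42, then 10.25 and 10.30 in MM.1S, 11.95 and 12.06, then 11.34 and 11.21 in U266, and 10.48 and 10.76, then 10.73 and 10.73 in 8226R5. Groups were separated in MM.1S and U266 and overlapped in 8226R5. The response was -1.16 ± 0.10, -0.73 ± 0.10 and 0.11 ± 0.10 (adjusted p = 6.29e-06, 0.00118 and 0.566).

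SLBP, which binds the stem-loop of histone mRNA, read 11.22 and 11.22, then 9.74 and 9.89 in MM.1S, 10.97 and 10.999, then 10.63 and 10.63 in U266, and 10.85 and 10.81, then 10.81 and 10.88 in 8226R5. It fell by 1.40 ± 0.08 in MM.1S and 0.36 ± 0.08 in U266, while a second probe gave -0.71 and 0.11. CHAF1B, a subunit of the histone chaperone CAF-1, read 9.65 and 9.60, then 9.20 and 9.31 in MM.1S, 10.29 and 10.28, then 9.96 and 9.89 in U266, and 8.30 and 8.51, then 8.23 and 8.13 in 8226R5. It was lower on every treated array, by 0.37 ± 0.09 and 0.36 ± 0.09 in MM.1S and U266, and -0.22 ± 0.09 in 8226R5 did not pass (adjusted p = 0.179). CHAF1A, its partner, fell in MM.1S alone, by 0.47.

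Across the lines, 11 of the 45 genes fell in both MM.1S and U266 (9.82% of all genes), which is 11 of the 33 called lower in MM.1S and 11 of the 14 in U266. None fell in all 3 lines (0.893%). By the brightest probe, only RRM2 fell in U266 and rose in 8226R5 (1.29%). A second probe each of MCM7 and UHRF1 was called the same way, that of UHRF1 not above background on any 8226R5 array. Responses over the 45 genes correlated at a Spearman rho of 0.22 between MM.1S and U266, -0.07 between MM.1S and 8226R5 and -0.01 between U266 and 8226R5, against 0.30, -0.06 and 0.04 over all 11305 genes. The points share the probes and the normalization, and genes are not independent replicates. Longer genes had lower responses in MM.1S among replication genes and among all genes alike (rho of -0.29 in both).

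The difference in response was tested directly. Between the 2 lines at 40 µM, 8226R5 minus U266, 6 replication genes differed upwards and 2 downwards (9.89% and 9.02% of all genes). RRM2 led with 2.19 ± 0.14 (adjusted p = 2.77e-05), then MCM4 with 1.08 ± 0.12 (adjusted p = 0.000492) and UHRF1 with 0.84 ± 0.15 (adjusted p = 0.00471). GINS4 with 0.59 and SLBP with 0.37 were also higher. MCM10 and RFC1 had -0.49 each. PRIM2 counted as higher but was not above background on any U266 array, so no size is given, and these 3 changed sign under a scaling. Median scaling over all probes gave 43 up and none down, and scaling on the probes above background on all arrays 4 up and 6 down. The count was 5 without either U266 control, 4 without U266 treated replicate 2, and 3 to 5 without any 1 array of 8226R5. A second probe of MCM7 also differed, by 2.13. The second MCM4 probe gave responses of -0.17 in U266 and -0.0041 in 8226R5, and the second SLBP probe 0.11 and -0.031. The size for MCM4 and the direction for SLBP thus depend on the probe read. Second probes of UHRF1, MCM10 and RFC1 ordered the 2 lines as their brightest probes did.

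**Figure D4:**
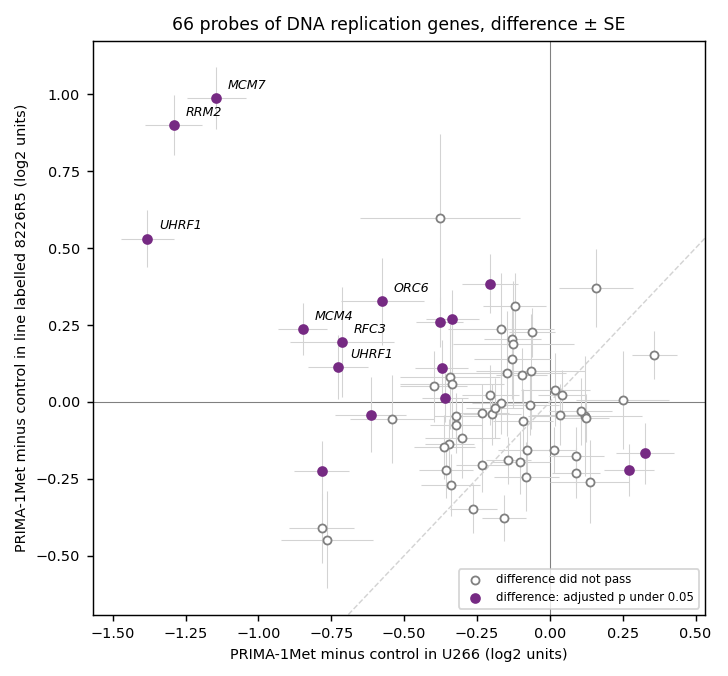
Response of the 66 tested replication probes in U266 (x axis) and in the line labelled 8226R5 (y axis), both in log2 units at 40 µM; bars are ± SE, the dashed line marks equal responses and filled points have a response difference past an adjusted p of 0.05. RRM2, at -1.29 and 0.90, and a second probe of MCM7, at -1.14 and 0.99, lie farthest from the line. The leftmost UHRF1 point is a probe not above background on any 8226R5 array or on the treated U266 arrays.

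Against MM.1S, treated at a different dose, the values are given side by side. U266 minus MM.1S differed upwards for 25 genes and downwards for 5 (41.1% and 21.5% of all genes). GINS4 gave -1.90 ± 0.14 and POLD1 -1.34 ± 0.13. For 8226R5 minus MM.1S 27 differed upwards and 5 downwards (42.7% and 22.8%), with RRM2 at 2.44 ± 0.14. RFC3 was called higher in both differences, but no size is given because it was not above background on the treated MM.1S arrays. POLD1 gave -1.60 ± 0.13 and GINS4 -1.31 ± 0.14, which turned to 0.18 and 0.30 under median scaling over all probes. Line and dose cannot be told apart in either difference.

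Before treatment more of the machinery was higher in U266 than in MM.1S. Against untreated MM.1S, 25 of 45 genes were higher and 7 lower (30.9% and 31.1% of all genes), with a median of 0.30 against -0.02 for all genes. CDT1 was 1.99 ± 0.08 higher (3.98-fold, adjusted p = 3.97e-08), RPA2 1.71 ± 0.12 and PRIM1 1.49 ± 0.11, with no overlap between lines. The 7 lower genes were RPA1, with -1.26 ± 0.08, POLA1, POLA2, RRM2, RFC1, SLBP and PRIM2, the last not above background in either line. With the mean of all tested probes of a gene, 24 were higher and 4 lower (3536 and 3654 of all 11305 genes). None, RPA1 included, was then at least 2-fold lower, so the size for RPA1 depends on the probe read.

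The line labelled 8226R5 had fewer transcripts of several replication genes than U266. There 26 of 45 were lower and 8 higher (33.9% and 34.5% of all genes), with a median of -0.56 against 0.01. RRM2 differed by -2.11 ± 0.10 (4.31-fold lower, adjusted p = 7.21e-08), CHAF1B by -1.88 ± 0.09 and MCM5 by -1.76 ± 0.12. MCM6 and MCM4 were each 1.67 lower, whereas MCM3 was 0.45 higher and RPA1, by its brightest probe, 1.48 higher. With the mean of all tested probes of a gene, no replication gene was at least 2-fold higher. Against MM.1S 15 were higher and 18 lower (33.3% and 32.4%), led by RRM2 with -2.48 ± 0.10, MCM4 with -1.54 ± 0.08 and CHAF1B with -1.22 ± 0.09. Of the 8 plasma cell markers, 4 were not above background on these arrays, and against U266 5 were lower and 1, MZB1, was higher, by 1.56. The part of the markers in these differences was not tested.

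**Figure D5:**
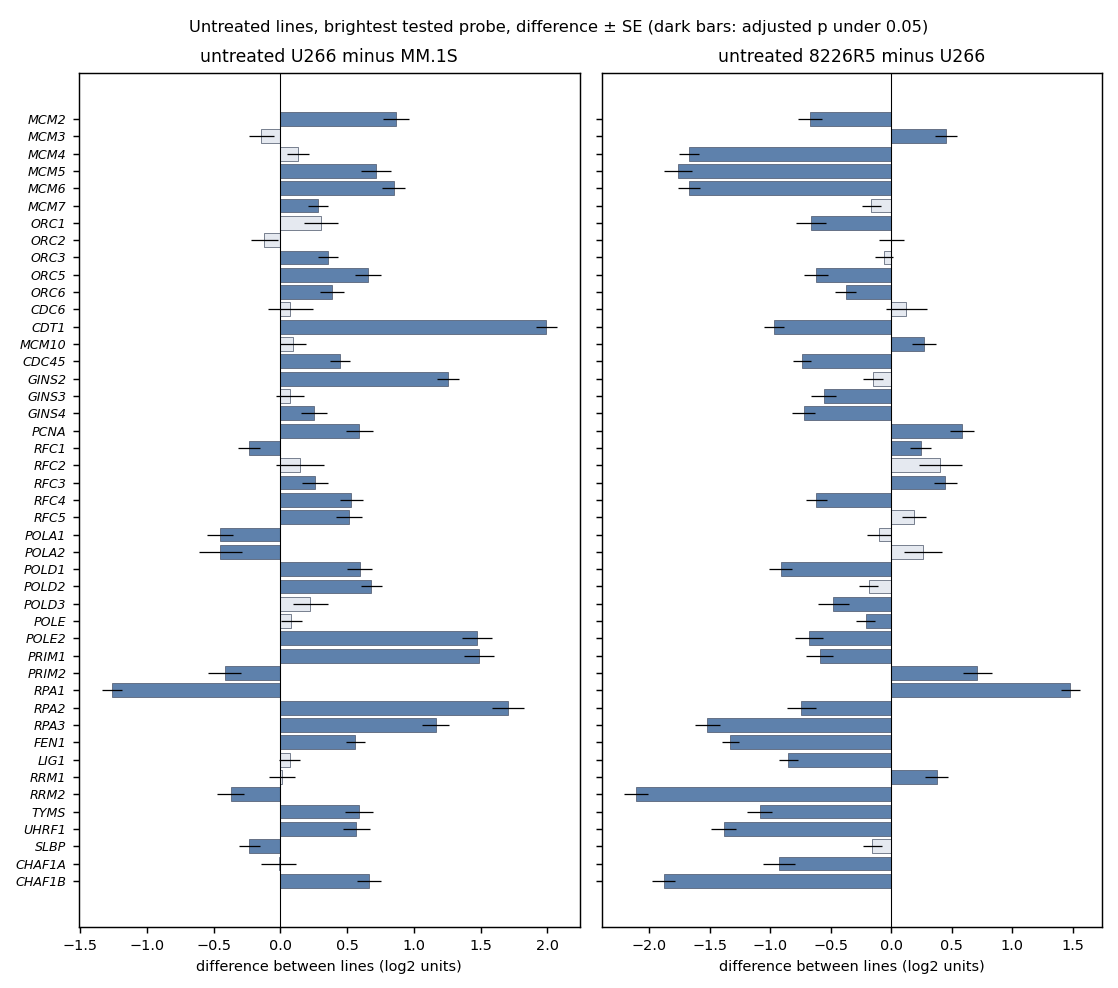
Difference between untreated lines for the 45 tested replication genes in log2 units, U266 minus MM.1S on the left and 8226R5 minus U266 on the right; bars start at 0, whiskers are ± SE and dark bars passed an adjusted p of 0.05. In the left panel 25 genes are called higher in U266, led by CDT1 at 1.99, and in the right panel 26 are called lower in 8226R5, led by RRM2 at -2.11. MCM7 on the left turned to -0.060 under scaling on the tested probes and RFC1 on the right to -0.0086 under median scaling over all probes.

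The promoters were searched for motifs, which the choice of genes did not use. RefSeq (GRCh38.p14) gave a promoter of 300 bases, 250 before to 50 after the start, for 40 of the 46 genes. An E2F-type motif (TTTGGCGC, TTTCCCGC, TTTGCCGC or TTTCGCGC on either strand) lay in 19 of 40 (47.5%), against 3.99% of 27305 genes with an entry and 6.80% of 9076 tested genes. CCAAT on either strand lay in 24 (60%), against 39.7% and 44.0%, and the CHR letters TTTGAA or TTCGAA in 2 (5%), against 19.5% and 16.3%. A match is a description and not a shown binding site. Genes with and without the E2F-type motif had the same median response in MM.1S, -0.64, close values in U266, -0.14 and -0.20, and -0.05 in both sets in 8226R5. Only the listed letters were searched, so genes without a match may hold other E2F sites. The medians therefore cannot compare genes with and without E2F sites.

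Other genes of the same process were read from a wider list. Of 35 tested further replication factors, 23 fell and 6 rose in MM.1S, 6 fell and 5 rose in U266 and none passed in 8226R5. Of all genes 50.3% fell and 24.1% rose in MM.1S, 14.5% and 12.1% in U266 and 5.04% and 4.13% in 8226R5. These shares also stand beside the lists below, for the quantile-normalized values only. In MM.1S CHTF18, part of an alternative clamp loader, and RECQL4, a helicase of origin firing, both rose by 2.67 log2 units, and ATAD5, which unloads PCNA, was at least 3.40-fold higher. The balance of the list turned with the scaling, as did that of all genes. Median scaling over all probes gave 30 down and 4 up in MM.1S, 29 down and none up in U266 and 9 up and none down in 8226R5. Of all 11305 genes it gave 8437 down and 871 up, 7239 and 388, and 473 and 2911. Scaling on the probes above background on all arrays gave 11 down and 13 up, 7 down and 9 up, and 4 down and none up. Of all genes it gave 3490 down and 5852 up, 1702 and 3237, and 1423 and 624. These counts of all genes also stand beside the lists below under the same scalings. In U266 NASP, a histone chaperone, rose by 0.68, RNASEH2C, a subunit of the nuclease that removes RNA from DNA, fell by 0.66, and CLSPN, a fork checkpoint mediator, was called lower but was not above background after treatment.

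Of 25 tested E2F and RB regulators and G1/S cyclins, 19 fell and 2 rose in MM.1S, 10 fell and 1 rose in U266, and 2 fell and 1 rose in 8226R5. The same scalings gave 23 down and none up, then 15 down and 5 up in MM.1S, 20 down and none up, then 10 down and 2 up in U266, and 5 up and none down, then 6 down and 2 up in 8226R5. The pocket protein RBL1 was at least 1.35-fold lower in MM.1S, where CDK6 fell by 1.53 and E2F8 was called lower without a measurable fold. In U266 the cyclin CCND1 fell by 0.83, the inhibitor CDKN1B by 0.69 and E2F2 by 0.64. In 8226R5 CCNE1 fell by 0.48, CCND1 by 0.28, and E2F3 rose by 0.39.

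Of 10 tested housekeeping genes 9 fell in MM.1S, among them PPIA (at least 1.52-fold lower), YWHAZ by 1.52 and B2M by 1.45. In U266 ACTB fell by 0.60 and PGK1 by 0.31, and in 8226R5 PPIA alone was called, 0.82 higher. Under median scaling over all probes 10 fell in MM.1S, 8 fell in U266 and 4 rose in 8226R5, and under scaling on the probes above background on all arrays 7 fell and 2 rose, then 2 rose and none fell, then 1 rose. Of 8 plasma cell markers 7 fell and 1 rose in MM.1S, 4 fell in U266 and 2 fell in 8226R5. More of these markers fell than rose in each line under every scaling tried. Of 10 tested markers of other cell types 3, 4 and 2 rose in the same lines and none fell, although median scaling over all probes gave 2 down in each of MM.1S and U266.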

How the data were processed

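RNA from 12 cultures of 3 cell lines was hybridised to Illumina HT-12 BeadChips, 1 sample per array. The authors deposited bead intensities (AVG_Signal, background-subtracted and not normalized, per the file headers) with a detection p-value for each probe and array. A second deposited table holds log2 values that the authors quantile-normalized; all 12 arrays share the same set of values, and the log base was read by comparison with the intensities. BeadStudio, lumi and limma are named in the submitters' processing notes; no genome build is named in the sources used. On 9 arrays of the intensity table the probes from a certain position on were displaced by 1 line against their names, 24399 probes in all. They were moved back, which raised the rank correlation with the log2 table from 0.511 to 0.529 up to 1, and 47321 of 47322 probes were kept. Of the probes analysed, 30111 had 1 gene symbol in the platform annotation, 8 had several and 17202 had none.

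The log2 values were fitted with limma 3.58.1 in R 4.3.3 (lmFit and eBayes, 6 group means, 12 arrays), with Benjamini-Hochberg adjustment over 19357 probes above background (detection p under 0.01) on at least 2 arrays and a threshold of 0.05. The SE is the moderated one. Genes were counted by the brightest tested probe. A probe not above background on either array of a group received a bound, against the lowest signal among probes above background; such a fold is written as at least N-fold. Medians and Spearman correlations were computed with pandas 2.3.3 under Python 3.11.15. The depth of an array is not a count, and the number of arrays limits the precision. The fit was also run on simulated data in which a probe had the same spread in all groups. That run could not show how the wider replicate spread of treated MM.1S arrays bears on the calls.

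Alternatives were values from neqc with an offset of 16 (background correction with quantile normalization), median scaling over all probes, scaling on the 8932 probes above background on all arrays, no background correction, no detection filter, detection on all 12 arrays, a replicate block, array weights, only the lines compared, the mean of all tested probes of a gene, and each array left out. Median scaling over the tested probes, and detection in a compared group, were chosen after seeing the data. Replicate numbers did not pair the samples: deviations of same-numbered control and treated arrays correlated at 0.0087, -0.0022 and 0.00087 in the 3 lines, which with 2 replicates per line gives no basis for a block. Values on every array are given for the 6 genes with the largest calls in each line, the 3 largest in each comparison of lines, and 8 fixed genes. Up to 3 called genes per line are named from each further list. Promoters are printed for the largest called fall in each line with an entry, outside chromosome 8. The replication genes and the lists were chosen with earlier results of these data known.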

Additional observations from a re-analysis of the deposited data

Results flagged for a closer look

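The 3 largest tested differences in response for each pair of lines fell on 6 replication genes. Each value is a difference of responses in log2 units, tested with limma over all probes. Between U266 and 8226R5, both at 40 µM, 8226R5 minus U266 gave 2.19 for RRM2, the small subunit of ribonucleotide reductase, 1.08 for the helicase subunit MCM4 and 0.84 for UHRF1. The value for MCM4 is that of its brightest probe, and the second gave responses of -0.17 in U266 and -0.0041 in 8226R5. RRM2 kept its sign and call under each alternative tried. For RRM2 every treated array of U266 lay below its controls and every treated array of 8226R5 above them.

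U266 minus MM.1S gave -1.90 for GINS4, a fitted 1.62 for the clamp loader subunit RFC3 and -1.34 for POLD1. For 8226R5 minus MM.1S the values were 2.44 for RRM2, a fitted 1.68 for RFC3 and -1.60 for POLD1, the last turning to 0.18 under median scaling over all probes. RFC3 was not above background on the treated MM.1S arrays, so neither of its fitted values measures a size. MM.1S received 20 µM and the others 40 µM, so line and dose cannot be told apart.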

How the results depend on the processing

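Scaling changed many directions. Median scaling over all probes gave 2 replication genes up in MM.1S, 39 down and 0 up in U266, 0 down and 13 up in 8226R5 and 43 differing between 8226R5 and U266. Of all 11305 genes it gave 871 up in MM.1S, 7239 down and 388 up in U266 and 473 down and 2911 up in 8226R5. Scaling on the probes above background on all arrays gave 9 up in MM.1S and 6 in U266, and on the tested probes 8 and 7. Of all genes these gave 5852 and 3237, then 4603 and 3363. Under these 3 scalings the median relative to all genes was -0.81 in MM.1S, -0.13 in U266 and 0.026 in 8226R5. Each of the 3 shifts every gene on an array by the same amount, so each value is the same under all 3 by construction. Without a detection filter U266 had 6 down and 0 up, 8226R5 0 down and 1 up and the difference 3, with -0.57 in MM.1S. Of the 20046 genes then tested 755 fell and 580 rose in U266, and 89 fell and 94 rose in 8226R5. Detection on all 12 arrays gave 6 down and 5 up in 8226R5 (807 and 612 of the 5966 genes then tested). Between 8226R5 and U266 13 replication genes then differed (983 up and 1227 down of all). Detection in a compared group gave relative medians of -0.18 in MM.1S and -0.14 in U266. The mean of all tested probes gave 0 up in U266 and 5 up in 8226R5 (1376 and 647 of all 11305 genes), with a relative median of 0.030 in 8226R5. Only the lines compared gave 1 up in U266 (1318 of all), and array weights 5 down in 8226R5 (1062 of all). The replicate block could not be fitted to the untreated lines. With it U266 had 7 down and 1 up (1267 and 1000 of all) and 8226R5 0 down and 1 up (255 and 230). Between these lines 4 genes differed (772 up and 627 down of all).

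Leaving out 1 array gave 32 to 34 down and 5 to 5 up in MM.1S, 6 to 16 and 0 to 3 in U266 and 0 to 4 and 1 to 3 in 8226R5. Untreated differences ran from 24 to 34 (U266 against MM.1S), 27 to 34 (8226R5 against MM.1S) and 30 to 36 (8226R5 against U266), and response differences from 26 to 32, 29 to 33 and 3 to 9. Relative medians ran from -0.36 to -0.30, -0.20 to -0.14 and -0.056 to -0.0064. The numbers of all genes called also moved in these fits.

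Called values that turned were, in MM.1S, RFC4 (0.027) and PRIM2 (0.87) on the all-array probes, PRIM2 (0.47) on the tested probes, and POLD1 (-0.14), POLE (-0.79) and LIG1 (-0.995) under median scaling. In U266 they were MCM6 (0.060 and 0.077), MCM7 (0.022 and 0.039) and PRIM2 (0.24 and 0.26) on all-array and tested probes, TYMS (0.012) on the tested probes, MCM10 (-0.22), RFC1 (-0.30) and RPA1 (-0.16) under median scaling, and RPA1 (-0.032) as a mean of probes. Untreated, MCM7 turned in U266 minus MM.1S (-0.060, tested probes), RPA1 in 8226R5 minus MM.1S (-0.18, mean of probes) and RFC1 in 8226R5 minus U266 (-0.0086, median scaling).

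Response differences turned as follows. U266 minus MM.1S: PRIM2 (-0.63 and -0.21, all-array and tested probes), LIG1 (0.46, median scaling) and UHRF1 (-0.20, mean of probes). For 8226R5 minus MM.1S: MCM3 (-0.0078, all-array probes), PRIM2 (-1.06 and -0.64), and GINS4 (0.30), POLD1 (0.18), POLE (0.63) and LIG1 (1.26) under median scaling. For 8226R5 minus U266: PRIM2 (-0.44 and -0.42), and MCM10 (0.28) and RFC1 (0.32) under median scaling. The cause of each turn was not tested. Calls that held with 1 sign under every alternative were 28 of 38 in MM.1S, 4 of 17 in U266 and 1 of 4 in 8226R5. Dim probes, such as those of PRIM2 and GINS1, had too little signal over background for a fold.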
